A study of Mustela putorius furo with 8 samples.

Results

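Laminin chain and integrin subunit genes of ferret pancreatic ductal epithelial (PDE) cultures were followed through polarization in wild-type (WT) and cystic fibrosis (CF) cells. The set held 9 of the 27912 genes counted and was chosen by symbol, not by level. It comprised the laminin genes LAMA3, LAMB3, LAMB1 and LAMC1 and the integrin genes ITGB1, ITGA2, ITGA3, ITGA6 and ITGB4, and all 9 were present in the count tables. The WT group carried intact CFTR and the CF group was CFTR KO/KO, and each genotype was profiled by droplet single-cell RNA sequencing after 2, 5, 7 and 9 days at an air-liquid interface (ALI). These days are those of the sample titles, whereas the general culture protocol in the labels speaks of 3 weeks at the interface. In both genotypes the cells came from newborn ferrets aged 1 to 3 days, had been passaged 10 times and were plated on supports coated with 804G matrix, the deposit of a rat bladder carcinoma line that is rich in laminin-332. There was 1 library per genotype and day, and cells of 3 donors of each genotype had been pooled in it and were not assigned to donors here. No difference between groups therefore had a replicate check, no p-value was computed, and every interval below is a 95% interval that covers counting error only.

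Laminins are cross-shaped heterotrimers of an alpha, a beta and a gamma chain, and they are the main scaffold of the basement membrane on which an epithelium rests. Laminin-332, whose alpha and beta chains are the LAMA3 and LAMB3 products, anchors stratified and ductal epithelia through hemidesmosomes, where it is bound by integrin α6β4. LAMB1 and LAMC1 encode the beta and gamma chains of most laminins other than laminin-332. Integrin α3β1 also binds laminin-332, and α2β1 is best known as a collagen receptor that binds laminins too. ITGB1 encodes the shared β1 subunit, so its RNA cannot be assigned to 1 receptor.

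Levels are given as CPM, the unique molecular identifiers (UMIs, single captured RNA molecules) of a gene per 1000000 UMIs of the library. The libraries held 1607 to 6224 retained cells and 34735952 to 114585136 UMIs, with a median of 14949 to 23427 UMIs per cell. Any pair of libraries shared few cell barcodes, from 1 to 14. CFTR RNA checks the genotype only where counted reads cover the disrupted part of the gene, which the sources used here do not give. It stood at 6.57 to 29.5 CPM in WT and 2.5 to 11.4 CPM in CF. The authors describe the knockout ferrets as lacking CFTR mRNA and protein, whereas the CF libraries held 256 to 621 CFTR UMIs. What these UMIs came from was not tested. Among marker lists, the 6 genes of duct epithelium were present in every library, with a summed level of 7871 to 10338 CPM in WT and 9150 to 9777 CPM in CF. Endothelial and nerve markers were at or near 0, with sums of at most 0.317 and 0.133 CPM, and CDH5 and SOX10 had no UMI. PTPRC, the pan-leukocyte marker, was at most 0.0198 CPM, and the 5 immune markers summed to 56.2 to 247 CPM through LCP1 and CD74. SOX2, a transcription factor gene, was at 68.5 to 114.5 CPM in WT and at most 0.0864 CPM in CF. Of the 41 WT clusters in the deposited cell table, 12 had under 10 CPM of SOX2 and are called SOX2-low here. Results for these cells are given beside some comparisons, and whether they came from 1 of the 3 pooled donors cannot be told apart from the other differences between them and the SOX2-high cells. In the RefSeq table of assembly ASM1176430v1.1, the 9 genes were protein-coding, on sequences with no chromosome assigned. LAMB1 (16736684 to 16804288) overlaps 2 long noncoding RNA genes that were counted separately, LOC106006577 and LOC106006574. It also overlaps LOC123387148. ITGA6 overlaps LOC106004982, at most 0.660 CPM in a library, and ITGB4 overlaps LOC123393551, at 0 CPM in every library.

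The laminin-332 chains were measured in every library and reached their highest levels on day 9. LAMA3, which encodes the α3 chain, was at 46.5, 176, 97.1 and 196 CPM in WT on days 2, 5, 7 and 9, and at 54.8, 68.3, 203 and 312 CPM in CF on the same days. In CF the level was higher on each later day, whereas in WT it was high on day 5, lower on day 7 and high again on day 9. LAMB3, which encodes the β3 chain, was at 146, 271, 218 and 315 CPM in WT and at 213, 195, 358 and 398 CPM in CF. Its order of days in WT was that of LAMA3, and in CF its lowest level was on day 5. Both genes thus shared the lower level on day 7 than on days 5 and 9 in WT, and the step between days 5 and 7 in CF. The chains did not keep a fixed ratio. LAMA3 UMIs per LAMB3 UMI went from 0.318 (0.308 to 0.328) on day 2 to 0.624 (0.612 to 0.637) on day 9 in WT, and from 0.257 (0.249 to 0.265) to 0.783 (0.767 to 0.800) in CF. The quotient of 2 genes depends on their lengths and capture, so only its change across libraries was read.

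Over whole libraries LAMB1 set the genotypes apart more than any other member on days 2, 7 and 9, whereas against SOX2-low WT cells LAMA3 differed more than LAMB1 on days 7 and 9. It was at 3.64, 23.7, 22.5 and 24.8 CPM in WT and at 28.3, 49.2, 82.1 and 71.9 CPM in CF on days 2, 5, 7 and 9. Every CF library lay above every WT library. In WT the counting intervals of days 5 and 7 overlapped, as did those of days 5 and 9, and day 2 lay well below them. LAMC1, which encodes the γ1 chain that pairs with β1, was at 35.2, 64.7, 43.2 and 57.2 CPM in WT and 39.9, 50.6, 85.0 and 88.3 CPM in CF. Its groups overlapped, and the intervals of CF days 7 and 9 did too. The 2 chains did not keep a fixed ratio in WT. LAMB1 UMIs per LAMC1 UMI were 0.104 on day 2 and higher, 0.367 to 0.521, on days 5 to 9. In CF the ratio was 0.710 to 0.972. The lncRNA LOC106006577, which overlaps the end of LAMB1 with the lower coordinate, was at 0.0436 to 2.78 CPM in WT and at 0.577, 2.36, 12.9 and 9.42 CPM in CF. The annotation table gives no strand, and the part of shared reads in the LAMB1 difference was not tested.

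**Figure D1:**
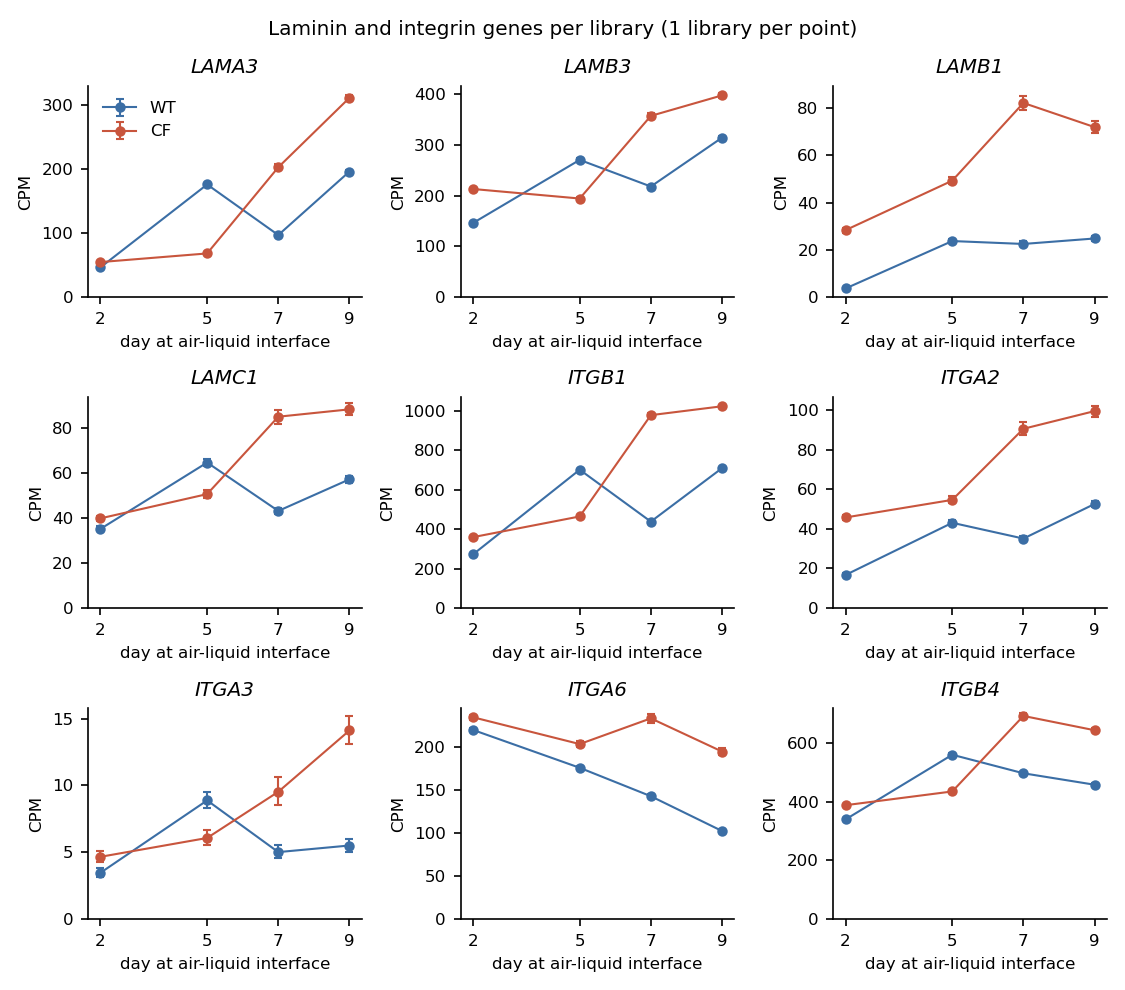
CPM (vertical axes, from 0) of the 9 genes by day at the air-liquid interface (horizontal axes) in WT (blue) and CF (red), with 1 library per point and bars for the exact 95% Poisson counting interval, mostly smaller than the points. LAMB1, ITGA2 and ITGA6 were higher in CF on every day, ITGA6 by 1.07-fold on day 2. LAMA3 was lower in CF on day 5 and higher on days 2, 7 and 9. In WT, ITGA6 went from 220 CPM on day 2 to 103 CPM on day 9.

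Among the receptors, ITGB1 was at 272, 702, 439 and 710 CPM in WT and at 360, 465, 979 and 1024 CPM in CF on days 2, 5, 7 and 9. It followed the same order of days as LAMA3 in both genotypes, although WT days 5 and 9 had overlapping intervals. ITGA2, which encodes the α2 subunit, was at 16.7, 43.0, 35.1 and 52.5 CPM in WT and 45.7, 54.6, 90.5 and 99.4 CPM in CF. CF was higher on each day, but the highest WT library exceeded the lowest CF library. ITGA3, the α3 subunit gene, was the least counted member, at 3.46, 8.88, 5.01 and 5.51 CPM in WT and 4.66, 6.07, 9.53 and 14.1 CPM in CF, or 331 to 899 UMIs per library.

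ITGA6 and ITGB4, which encode the 2 subunits of the hemidesmosome receptor, did not move together. ITGA6 was at 220, 176, 143 and 103 CPM in WT and at 235, 204, 234 and 195 CPM in CF on days 2, 5, 7 and 9. It was the one member that was lower on day 9 than on day 2 in both genotypes. ITGB4 was at 339, 560, 496 and 458 CPM in WT and at 388, 435, 692 and 643 CPM in CF. ITGB4 UMIs per ITGA6 UMI were 1.54 (1.52 to 1.57) on day 2 and 4.46 (4.36 to 4.57) on day 9 in WT, and 1.65 (1.62 to 1.68) and 3.3 (3.22 to 3.37) in CF. The ratio was higher on each later day in both genotypes, and from day 5 it was higher in WT than in CF.

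The comparison of day 9 with day 2 asks how the genes differ between the first and the last day sampled. Differences are on the scale of log2(CPM + 1), and a difference of at least 1 is called at least 2-fold. In WT, 5 of the 9 members were at least 2-fold higher on day 9, against 8.86% of the 7712 genes with a mean of at least 10 CPM, and 1 was at least 2-fold lower, against 4.72%. The 5 were LAMB1 (6.81-fold, 6.13 to 7.58), LAMA3 (4.23-fold, 4.1 to 4.36), ITGA2 (3.14-fold, 2.98 to 3.32), ITGB1 (2.61-fold, 2.57 to 2.64) and LAMB3 (2.15-fold, 2.11 to 2.19). In SOX2-low WT cells alone LAMB3 was at 210 CPM on day 2 and 259 CPM on day 9, short of 2-fold. ITGA6 was the 1 lower member, with 2.15 times as much on day 2, and its difference of -1.09 was -0.47 in SOX2-low WT cells alone. In CF, 6 members were at least 2-fold higher on day 9, where the share of all tested genes was 5.55%, and 0 were at least 2-fold lower, where it was 2.52%. The largest of these was LAMA3 (5.69-fold, 5.52 to 5.87), followed by ITGA3, ITGB1, LAMB1, LAMC1 and ITGA2 at 3.03- to 2.17-fold. The median difference over the 9 members was 1.1 in WT and 1.13 in CF, beside 0.11 and 0.14 over all tested genes. ITGA3 did not pass the filter of 10 CPM and is counted among the 9 but not among the 7712. With equal weight for each deposited class, 1 and not 6 members was at least 2-fold higher on day 9 in CF. Without CF cluster 11, which led with mesenchymal and contractile genes, the count was 4. No share of tested genes is given for either setting.

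The comparison of CF with WT on the same day asks what CFTR knockout cultures differ in. On day 2 all 9 members were higher in CF, as were 51.6% of all tested genes, and 2 were at least 2-fold higher, LAMB1 (7.78-fold, 7.02 to 8.64) and ITGA2 (2.74-fold, 2.59 to 2.89). Against SOX2-low WT cells 7 of the 9 members were higher in CF on day 2, with a median difference of 0.06. The share of all tested genes is not given for that comparison, so this count is not read as particular to the members. Against the same cells ITGB4 was at 0.934 of the WT level (0.909 to 0.959), and ITGA2 was 1.57-fold higher (1.42 to 1.73), short of 2-fold. Over whole libraries, 4.23% of all tested genes were at least 2-fold higher and 2.74% at least 2-fold lower on that day. On day 5 the direction was mixed: 3 members were higher and 6 lower in CF, where 44% of tested genes were higher and 56% lower. Against SOX2-low WT cells 7 of the 9 were higher in CF on that day (52.3% of tested genes), with a median difference of 0.30, and against SOX2-high WT cells 2 were (46%), with a median of -0.73. LAMB1 was 2.08-fold higher (1.97 to 2.19), where 1.84% of tested genes were at least 2-fold higher, and the difference of 1.02 on the log2 scale was 0.92 with a pseudocount of 5, 0.998 with all barcodes and 0.81 when every cell weighed the same. LAMA3 was 2.58 times higher in WT, with CF at 0.388 of the WT level (0.375 to 0.400), where 3.1% of tested genes were at least 2-fold lower in CF.

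On day 7 all 9 members were higher in CF, as were 63% of tested genes, and 4 at least 2-fold, against 3.89% of tested genes, with 0 at least 2-fold lower against 2.35%. The 4 were LAMB1 (3.65-fold, 3.45 to 3.88), ITGA2 (2.58-fold, 2.45 to 2.71), ITGB1 (2.23-fold, 2.20 to 2.26) and LAMA3 (2.09-fold, 2.03 to 2.16). Against SOX2-low WT cells LAMA3 was 4.34-fold higher in CF on day 7 (4.097 to 4.61) and 2.68-fold on day 9 (2.58 to 2.79). On day 9 all 9 were again higher, beside 60.6% of tested genes, with LAMB1 (2.90-fold, 2.75 to 3.06) and ITGA3 (2.56-fold, 2.28 to 2.89) past 2-fold, against 2.71% of tested genes higher and 2.83% lower. The ITGA3 difference of 1.22 on the log2 scale was 0.86 with a pseudocount of 5, 0.71 with equal weight for each class, 0.94 against SOX2-low WT cells and 1.01 without CF cluster 11. The members' median difference was 0.34, -0.36, 0.96 and 0.66 on days 2, 5, 7 and 9, beside 0.02, -0.04, 0.13 and 0.09 over all tested genes. The scaling mattered on day 7. Under trimmed mean of M-values (TMM) scaling the median gene shifted by -0.20 on that day, and 2 members rather than 4 were past 2-fold, LAMB1 and ITGA2. One cluster mattered as well. Without the cells of CF cluster 11, an alternative chosen after seeing the data, 2 members were past 2-fold on day 7, LAMB1 and ITGA2, and the day 7 differences of LAMA3 and ITGB1 were 0.57 and 0.71 in place of 1.06 and 1.16. On day 9 those of LAMA3 and ITGB1 were then 0.19 and 0.16 in place of 0.66 and 0.53, and that of LAMB1 was 1.38 in place of 1.499. Shares of tested genes past 2-fold are not given under TMM or without cluster 11.

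**Figure D2:**
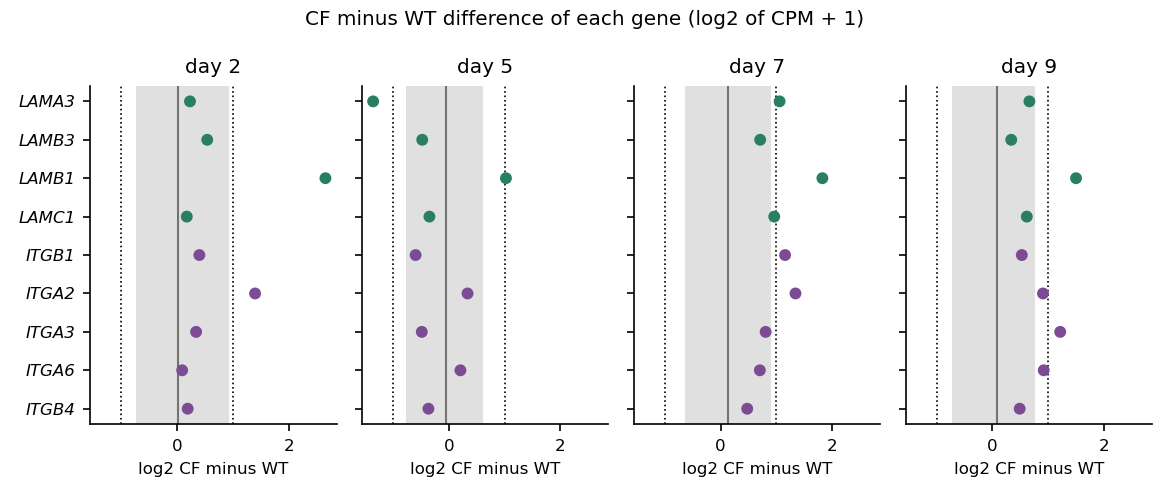
CF minus WT difference on the log2(CPM + 1) scale (horizontal axes) of each gene on days 2, 5, 7 and 9, with laminin genes in green and integrin genes in purple. The grey band spans the 5th to 95th percentile of the 7712 tested genes, the grey line is their median and dotted lines mark 2-fold, and LAMB1 lay outside the band on each of the 4 days.

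Set against the mean of LAMB1 and LAMC1, the laminin-332 chains were lower in CF on every day. The mean difference of LAMA3 and LAMB3 minus that of LAMB1 and LAMC1 was -1.03 (-1.10 to -0.96), -1.25 (-1.31 to -1.20), -0.51 (-0.57 to -0.45) and -0.56 (-0.61 to -0.51) on the log2 scale on days 2, 5, 7 and 9. On day 2 LAMA3, LAMB3 and LAMC1 differed between genotypes by 0.23, 0.54 and 0.18, and LAMB1 by 2.66. On day 5 LAMA3 differed by -1.35, LAMB3 by -0.48, LAMB1 by 1.02 and LAMC1 by -0.35. Against LAMC1 alone the order was not the same: the WT libraries held 1.32, 2.73, 2.25 and 3.43 LAMA3 UMIs per LAMC1 UMI and the CF libraries 1.37, 1.35, 2.39 and 3.53, lower in CF on day 5 and slightly higher on the other days. The WT libraries held 4.16, 4.19, 5.06 and 5.50 LAMB3 UMIs per LAMC1 UMI and those of CF 5.35, 3.84, 4.21 and 4.51, higher in CF on day 2 and lower on days 5, 7 and 9. LAMB3 UMIs per LAMB1 UMI were 40.2 (36.4 to 44.4), 11.4, 9.71 and 12.7 in WT and 7.53 (7.25 to 7.83), 3.95, 4.36 and 5.54 in CF. Every CF library had a lower ratio than every WT library. The contrast depended on which WT cells were used: with only the SOX2-low cells of WT it was -0.73, -0.22, 0.05 and -0.11. Without CF cluster 11, described with the clusters, it was -0.70 on both day 7 and day 9.

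Laminin-332 RNA differed between the WT cells on day 5, more in LAMA3 than in LAMB3. LAMA3 was at 43.1, 41.4, 46.8 and 116 CPM in SOX2-low and at 46.9, 290, 124 and 232 CPM in SOX2-high WT cells on days 2, 5, 7 and 9. Against SOX2-low cells, CF was 1.65-fold higher in LAMA3 on day 5 (1.56 to 1.74), and against SOX2-high cells it was at 0.235 of the WT level (0.228 to 0.243). The direction on day 5 thus turned with the WT cells chosen. LAMB3 was at 210 (203 to 218), 132, 155 and 259 CPM in SOX2-low and at 137, 388, 251 and 339 CPM in SOX2-high WT cells, so that SOX2-low cells held more of it on day 2 and less on the later days. LAMB1 was at 7.56, 18.0, 20.2 and 30.1 CPM in SOX2-low and 3.06, 28.5, 23.7 and 22.5 CPM in SOX2-high WT cells. CF was higher in LAMB1 than either on all 4 days, by 3.75-, 2.73-, 4.07- and 2.39-fold against SOX2-low cells and by 9.24-, 1.73-, 3.47- and 3.20-fold against SOX2-high cells. ITGA6 differed between the WT cells in the other direction from LAMA3, at 226, 241, 198 and 163 CPM in SOX2-low and 219, 121, 114 and 76.1 CPM in SOX2-high cells. The day 2 values lay close, and from day 5 SOX2-high cells held less.

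Across the 68 deposited clusters of at least 50 cells, laminin-332 RNA peaked in a few clusters of each genotype. WT and CF cells had been clustered separately, and the clusters that differed in depth are given first. In 7 clusters the median UMI count was under 1 in 3 of that of their libraries, and in CF they took 31.3% of cells but 3.22% of UMIs on day 7. The highest LAMB3 levels were in such clusters, WT 20 at 1757 CPM (530 cells, median 3398 UMIs), CF 23 at 1659 CPM and CF 27 at 1319 CPM. Without these 7 clusters no library comparison changed sign and no count of members past 2-fold changed by over 1.5 times, and they are left out of the ranges that follow.

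In WT the 3 highest clusters for LAMA3, LAMB3, LAMC1, ITGB1, ITGA3 and ITGB4 were the same, clusters 2, 5 and 23, which the deposited table calls ductal. Clusters 2 and 5 were mostly of day 5, and day 9 gave the largest share of cluster 23, 48.9% of its cells. Cluster 2, with 1051 cells, held 680 CPM of LAMA3, 752 CPM of LAMB3, 47.9 CPM of LAMB1, 2138 CPM of ITGB1 and 1570 CPM of ITGB4. The lowest LAMA3 and LAMB3 were in ductal cluster 15, mostly of day 2, at 14.0 and 58.0 CPM. LAMA3 thus spanned 48.5-fold and LAMB3 13.0-fold over 36 WT clusters. In CF clusters 11 and 3, both called centroacinar and mostly of day 9, were the 2 highest for LAMA3, LAMB3, LAMC1, ITGB1, ITGA2, ITGA3 and ITGB4. Cluster 11, with 401 cells, held 826 CPM of LAMA3, 623 CPM of LAMB3, 112 CPM of LAMB1 and 2801 CPM of ITGB1. The spread over 25 CF clusters was 26.3-fold for LAMA3 and 4.99-fold for LAMB3. None of these 5 clusters had a marker of its deposited class among its 10 leading genes. This did not set them apart, since ductal WT clusters 0, 4 and 6 and centroacinar WT clusters 3 and 7 had none either. The leading genes of WT cluster 2 included INHBA, FN1 and TAGLN. Those of CF cluster 11 included ACTA2, COL1A1, COL1A2, TAGLN and FN1, and its 9 fibroblast markers summed to 288 CPM, beside 5.94 CPM in WT cluster 2.

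Mesenchymal and contractile genes moved with the same clusters. TAGLN, an actin-binding protein gene of contractile cells, was at 1518 CPM in WT cluster 2 and 3037 CPM in CF cluster 11, and FN1, the fibronectin gene, at 1439 and 2244 CPM. KRT19, a duct keratin gene, was at 3825 and 3483 CPM there. Over libraries the 5 contractile markers summed to 1.04 to 270 CPM in WT and 2.63 to 600.1 CPM in CF, nearly all of it TAGLN, with MYH11, CNN1 and DES at most 0.0785 CPM. The 9 fibroblast markers summed to 2.32 to 5.94 CPM in WT and 1.96 to 38.6 CPM in CF, of which only COL1A1 reached 10 CPM, and LUM and PDGFRB stayed at or below 0.340 CPM. Their part in the laminin and integrin differences was not tested.

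LAMB1 peaked in WT clusters 2, 8 and 5, at 47.9, 39.3 and 37.7 CPM, of which 2 and 5 were also among the highest in LAMA3 and LAMB3. In the 9 SOX2-high clusters made mostly of day 2 cells it was at 1.33 to 4.34 CPM, and in the 2 SOX2-low clusters of that day at 8.30 and 9.26 CPM. The 11 CF clusters of day 2 ranged from 20.7 to 38.4 CPM and did not overlap them. In CF the highest levels were in clusters 16, 11 and 3, at 114, 112 and 96.8 CPM. Across the 36 WT clusters Pearson's r with LAMB3 on the log2(CPM + 1) scale was 0.62 for LAMB1 and 0.92 for LAMC1, and across the 25 CF clusters 0.69 and 0.87. These r values describe clusters that share libraries and depth and carry no test. The same r between LAMB1 and ITGA2 was 0.89 in WT and 0.81 in CF. ITGA6 stood apart, with r of -0.07 in WT and 0.55 in CF with LAMA3 but 0.80 and 0.92 with ITGB4.

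**Figure D3:**
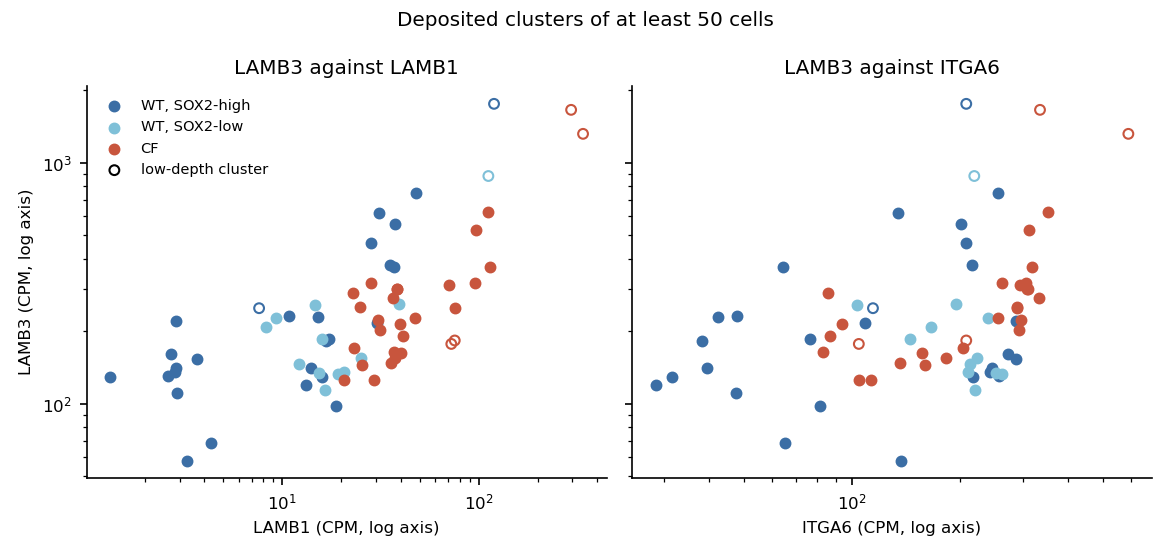
LAMB3 (vertical axis, CPM, log scale) against LAMB1 (left) and ITGA6 (right, both CPM, log scale) in deposited clusters of at least 50 cells, with WT SOX2-high clusters in dark blue, WT SOX2-low clusters in light blue, CF clusters in red and low-depth clusters as open circles. The WT clusters with under 5 CPM of LAMB1 were all SOX2-high, although most SOX2-high clusters lay above 5 CPM, and no CF cluster lay below 20.7 CPM.

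The genes whose levels were most like those of the laminin genes were taken over all 68 clusters of both genotypes and 7893 genes. For LAMB3 they were AGRN (r = 0.93), FHOD1, LAMC1, LAMA3 and CLSTN1 (0.91 each of these 4), where AGRN encodes the basement membrane proteoglycan agrin. For LAMA3 they were PTPRM, LAMB3, PLCXD2, GALNT2 and COL4A4 (0.90 to 0.91). For LAMC1 they were AGRN, DENND3, TMEM132A, COL4A4 and COL12A1 (0.91 to 0.92), and for LAMB1 ITGA2, LOC101676863, DDX17, BTBD7 and JAK1 (0.88 to 0.91). In WT clusters alone LAMC1 came first for LAMB3 (0.95), whereas in CF clusters alone the first were LOC101681560 for LAMB3 and KIRREL1 for LAMA3 (0.96 each).

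The deposited classes held different shares of cells in the 2 genotypes, which bears on every library value. Ductal cells were 71.5% of WT cells on day 2 and 39.7% on day 9, against 57.6% and 11.4% in CF. Centroacinar cells were 0.466% and 43.6% in WT against 25.1% and 78.6% in CF. A class was compared between genotypes only over clusters that had no more markers of another class than of their own among their 10 leading genes. Low-depth clusters with no marker of their own class among those genes were left out as well. Together this left out 1.41% to 16.3% of WT and 4.29% to 36.8% of CF cells per library, and 82.0% of CF ductal cells on day 9. Classes had been named within each genotype, so that one name need not stand for the same cells in both.

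In ductal cells all 9 members were higher in CF on day 2, with a median difference of 0.32, beside 53.8% of tested genes and their median of 0.03. That count left out 30.8% of the CF ductal cells of the day, and with every ductal cluster the ratio lay above 1 beyond its counting interval for 5 members and below 1 for 1, with a median of 0.10, where 40.9% and 43.2% of tested genes did so. On day 7 LAMB1 was 2.13-fold higher in CF (1.78 to 2.53), whereas 7 of the 9 members were lower beyond their counting intervals, against 30.6% of tested genes. The median was -0.46 (-0.66 with every cluster), beside -0.04 (-0.09) over tested genes. With every ductal cluster LAMB1 fell short of 2-fold on day 7. In the same class 4 of 9 members were at least 2-fold lower in CF on day 5, against 5.13% of tested genes, and 4 on day 9, against 8.3%. LAMA3 was at 221, 126 and 250 CPM in WT and 46.5, 72.4 and 73.1 CPM in CF ductal cells on days 5, 7 and 9, and ITGB4 at 792, 743 and 855 CPM against 306, 306 and 231 CPM. CF was at 0.298 of the WT level of ITGB1 on day 9 (0.271 to 0.328). The WT ductal levels rested on few clusters, since the median LAMA3 level over ductal clusters was 60.2 CPM in WT (18 clusters) and 58.9 CPM in CF (6 clusters). The CF values of days 7 and 9 rested on 88 and 51 cells, and with every cluster of the class the counts of days 5 and 9 were 6 and 5, against 5.46% and 14.6% of tested genes. In centroacinar cells the order was the opposite, with all 9 members at least 2-fold higher in CF on day 7, against 6.28% of tested genes, and 7 of 9 on day 9, against 8.82%. LAMA3 was at 153, 102 and 176 CPM in WT and 91.0, 288 and 358 CPM in CF centroacinar cells on days 5, 7 and 9, and ITGB1 at 417, 375 and 425 CPM against 607, 1395 and 1200 CPM. The CF class values were raised by clusters 11 and 3, at 826 and 429 CPM of LAMA3 against a median of 135 CPM over the 10 CF centroacinar clusters compared, and at 2801 and 1573 CPM of ITGB1 against 717 CPM. Without CF cluster 11 the counts at least 2-fold higher in centroacinar cells were 6 on day 7 and 6 on day 9, against 5.87% and 7.61% of tested genes, and LAMA3 was at 199.6 and 247 CPM in CF on these days, 1.95-fold (1.82 to 2.08) and 1.40-fold (1.35 to 1.45) the WT level. The WT clusters with the most laminin-332 RNA were thus called ductal and the CF ones centroacinar. LAMB1 was the one member higher in CF in all 12 comparisons of a class and a day, from 1.49-fold in ductal cells of day 5 to 9.65-fold in proliferating acinar cells of day 2. With every cluster it was also higher in all 12, and its lowest difference on the log2 scale was 0.30 in place of 0.56. The 12 comparisons split the same libraries by class and are not independent. The share of tested genes higher in CF in all 12 is not given.

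**Figure D4:**
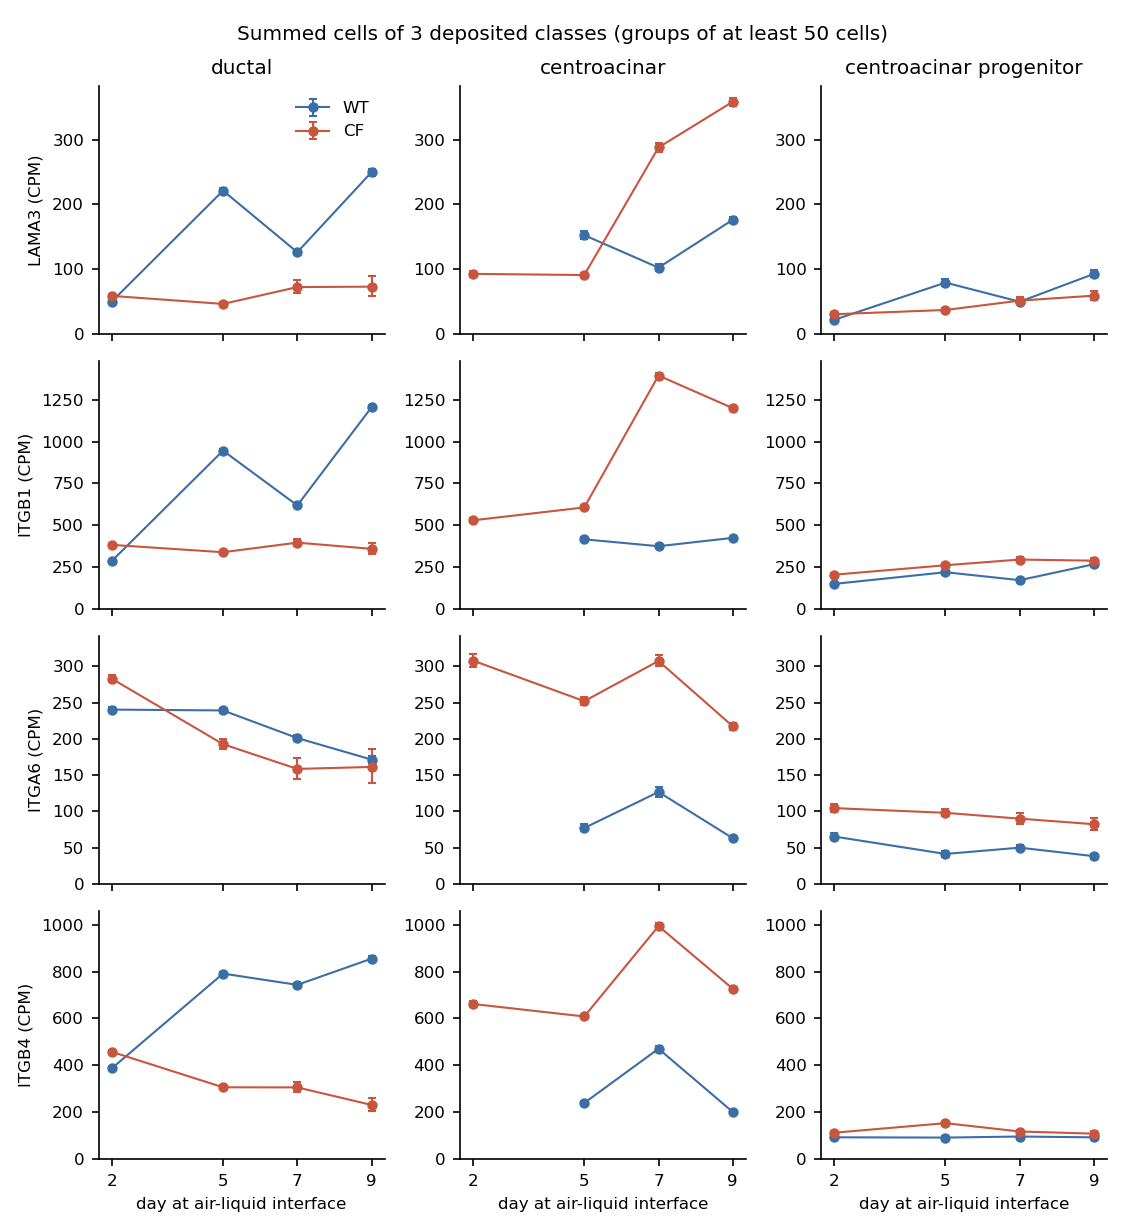
CPM (vertical axes, from 0) of LAMA3, ITGB1, ITGA6 and ITGB4 by day (horizontal axes) in summed cells of the ductal, centroacinar and centroacinar progenitor classes of WT (blue) and CF (red), over clusters that led with no more markers of another class than of their own and without low-depth clusters that led with none of their own, with bars for exact 95% Poisson intervals and no point for groups under 50 cells. LAMA3, ITGB1 and ITGB4 were higher in WT ductal and in CF centroacinar cells from day 5, apart from LAMA3 of day 5, and ITGA6 and ITGB4 were low in the progenitor class of both genotypes.

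Levels of the hemidesmosome receptor genes were low in the centroacinar progenitor class, though not in it alone. Over the clusters compared by class, ITGA6 ranged from 31.4 to 81.5 CPM in 6 WT progenitor clusters, beside 103 to 287 CPM in 18 WT ductal clusters. In CF it ranged from 83.0 to 113 CPM in 4 progenitor clusters and from 156 to 308 CPM in 6 ductal clusters, and the ranges did not overlap in either genotype. ITGB4 was at 48.3 to 166 CPM in WT and 103 to 203 CPM in CF progenitor clusters. The ductal clusters, at 122 to 1570 CPM in WT and 252 to 547 CPM in CF, overlapped them in WT but not in CF. The CF ductal clusters left out for another class's marker reached down to 93.9 CPM of ITGA6 and 153 CPM of ITGB4, within the progenitor ranges. Clusters were drawn from the same RNA counts, so these ranges describe them and test nothing. WT centroacinar clusters were also low in ITGA6, at 42.2 to 216 CPM with a median of 86.4 CPM over 6 clusters, against 299 CPM over 10 CF centroacinar clusters. ITGA6 was accordingly 3.26-, 2.42- and 3.44-fold higher in CF centroacinar cells on days 5, 7 and 9.

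Shares of cells with a UMI were compared after every cell was thinned to 3000 UMIs and shallower cells were left out, 39 to 150 cells per library except 411 of CF day 7 and 224 of CF day 9. LAMB1 was seen in 1.22% (0.961 to 1.53), 8.29%, 6.49% and 7.52% of WT cells and in 8.81% (7.996 to 9.68), 14.3%, 21.7% and 22.5% of CF cells on days 2, 5, 7 and 9. Unthinned, the shares were 6.38% to 32.1% in WT and 42.7% to 64.1% in CF. ITGA6 was seen in 44.6%, 35.0%, 31.3% and 23.9% of thinned WT cells and in 48.7%, 44.4%, 52.0% and 42.3% of CF cells. No class lacks these genes, so the share that free RNA gives could not be measured.

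Among other laminin chain genes, LAMA5, LAMA4 and LAMB2 were above 10 CPM in a library. LAMA5, the α5 chain gene, was at 22.6, 28.9, 23.2 and 27.4 CPM in WT and 32.8, 37.3, 64.2 and 62.4 CPM in CF, and was 2.77-fold higher in CF on day 7 (2.60 to 2.94). LAMA4, the α4 chain gene, was lower in CF over whole libraries, at 0.777, 25.8, 22.2 and 21.95 CPM in WT and 0.127, 0.280, 8.2 and 12.6 CPM in CF. On day 5 it was 92.3-fold higher in WT (59.6 to 151), from 20 UMIs in CF. The direction turned with the WT cells chosen: SOX2-low cells held 0.204, 1.19, 1.19 and 4.49 CPM, so that against them CF was 6.91-fold (4.83 to 10.2) and 2.81-fold (2.30 to 3.46) higher on days 7 and 9, and at 0.236 of WT on day 5 (0.134 to 0.400). LAMB2, the β2 chain gene, was at 9.61 to 24.0 CPM in WT and 15.1 to 21.8 CPM in CF. LAMA1, LAMA2, LAMB4 and LAMC3 stayed under 10 CPM, and LAMC3 had no UMI in any library.

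BCAM, a receptor for the α5 chain, was close to absent from CF libraries. It was at 85.8, 111, 133 and 90.4 CPM in WT and at 0.508, 2.01, 2.59 and 1.78 CPM in CF on days 2, 5, 7 and 9. WT was thus 169-fold higher on day 2 (129 to 226) and 55.0-, 51.2- and 50.8-fold higher after it. BCAM was at 12.8 CPM or more in each of the 36 WT clusters, SOX2-low and SOX2-high, and at most 6.67 CPM in the 25 CF clusters. Of the other receptors, DAG1, the dystroglycan gene, was at 66.5 to 78.5 CPM in WT and 88.6 to 173 CPM in CF, and RPSA, SDC1 and SDC4 were at least 10 CPM in all libraries.

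Among 18 other integrin subunit genes 4 reached 10 CPM, and ITGAV and ITGAX were not found under these symbols. ITGB6, which encodes the β6 subunit of epithelial αvβ6, was at 83.3, 318, 262 and 334 CPM in WT and 78.9, 151, 316 and 342 CPM in CF. Like LAMA3 it was lower in CF on day 5, with WT 2.11-fold higher, and unlike LAMA3 it was close in the 2 genotypes on day 9. ITGB5 was at 13.1 to 22.5 CPM in WT and 33.5 to 52.5 CPM in CF, with no overlap, ITGB3 was at 7.5 to 46.4 and 22.9 to 61.9 CPM, and ITGAE at 6.37 to 12.2 and 8.74 to 11.03 CPM.

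All 5 hemidesmosome genes found reached 10 CPM (KRT14 was not found under its symbol), and 2 of 5 were at least 2-fold higher in CF on days 7 and 9, COL17A1 and DST, where the shares of all tested genes were 3.89% and 2.71%. COL17A1, the gene of the transmembrane collagen BP180, was at 145, 166, 163 and 126 CPM in WT and 169, 203, 348 and 270 CPM in CF. DST, which encodes the BP230 plakin, was at 309 to 428 CPM in WT and 523 to 932 CPM in CF, with no overlap. The COL17A1 difference, 1.09 on the log2 scale on both days, passed 2-fold by less than the median gene shifted under TMM. PLEC, CD151 and KRT5 overlapped between genotypes. Among 10 basement membrane genes found, of a list of 11 with HSPG2, AGRN, COL4A1, COL4A5, COL7A1 and FRAS1 reached 10 CPM, and COL4A1, a collagen IV chain gene, was at 1.53, 10.8, 7.73 and 2.70 CPM in WT and 0.772, 0.923, 26.4 and 29.2 CPM in CF. COL7A1, the anchoring fibril gene, was at most 2.02 CPM in WT and at 8.12 and 15.7 CPM in CF on days 7 and 9. NID1 and NID2, the nidogen linkers between laminin and collagen IV, were at most 0.0960 CPM.

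Of 14 integrin adhesion genes 12 reached 10 CPM, and their median difference between genotypes was 0.12, -0.13, 0.25 and 0.30 on days 2, 5, 7 and 9. TGFBI, which encodes a secreted integrin ligand, was the 1 gene of the list at least 2-fold lower in CF on each day, at 139, 265, 196 and 166 CPM in WT and 9.26, 16.8, 35.7 and 29.7 CPM in CF. FERMT1, the epithelial kindlin gene, was at 175, 161, 119 and 46.3 CPM in WT and 189, 163, 125 and 104 CPM in CF, and was the 1 gene of the list past 2-fold higher in CF on day 9. The other genes of the list that reached 10 CPM, TLN1, VCL, ILK, PARVA, LIMS1, FERMT2, PTK2, ZYX, SRC and BCAR1, stayed within 2-fold between genotypes on every day. So did most tested genes, of which at most 4.23% were at least 2-fold higher and at most 3.1% at least 2-fold lower in CF on a day.

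**Figure D5:**
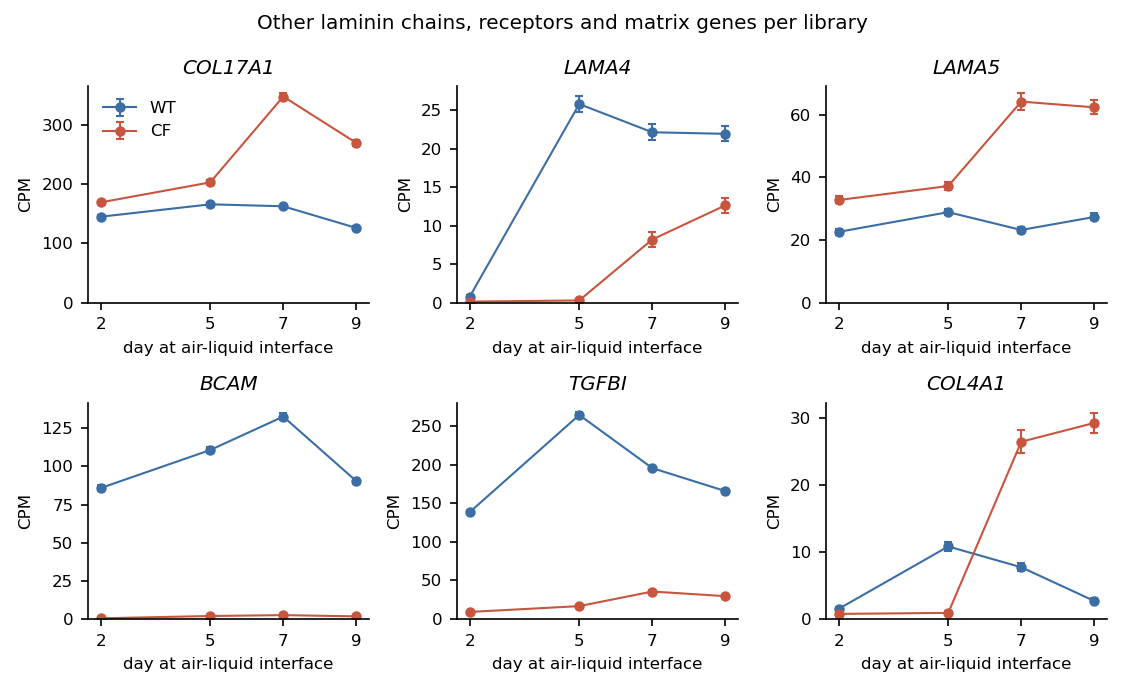
CPM (vertical axes, from 0) of 6 genes outside the set by day (horizontal axes) in WT (blue) and CF (red), with 1 library per point and bars for exact 95% Poisson intervals. BCAM was at 85.8 CPM or more in WT and at most 2.59 CPM in CF, LAMA4 and TGFBI were higher in whole WT libraries on each day (against SOX2-low WT cells LAMA4 was higher in CF on days 7 and 9), and LAMA5 was higher in CF on each day.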

How the data were processed

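RNA of 8 libraries, 1 per genotype and day, was sequenced by 10x droplet single-cell RNA sequencing. Per the methods and submitters' processing notes, the authors counted UMIs per gene and barcode with Cell Ranger 5.0.1 on ferret assembly ASM1176430v1.1, and the deposited counts were used as raw UMI counts. In Seurat, under R 4.1.2, the authors dropped cells under 200 genes or over 20% mitochondrial reads (the deposited table gives this percent per cell), removed doublets, merged libraries without batch correction, clustered WT and CF cells apart and named clusters by reference. The deposited cell table gave each retained cell's library, cluster and class. The deposited normalized values and lineage scores were not used here.

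UMIs were summed per library, cluster and class and divided by the summed UMIs (CPM). Genes with a mean of at least 10 CPM over the 8 libraries were tested for a difference of 1 on the log2(CPM + 1) scale. With 1 library per genotype and day no test was made; a fit of genotype plus day, which would take the days as replicates, was not run. Levels have exact Poisson intervals, ratios exact conditional binomial intervals and shares Clopper-Pearson intervals, all at 95% and for counting error only; the contrast of laminin-332 with LAMB1 and LAMC1 has a normal interval from the counts. Low-depth clusters had a median UMI count under 1 in 3 of that of their libraries. Coverage of the ratio intervals was checked on simulated Poisson counts, which follow the model of the intervals. That check says nothing about spread between cells or donors. Python 3.11.15, numpy 2.4.6, pandas 2.3.3, scipy 1.17.1, R 4.3.3, edgeR 4.0.16 (TMM) and DESeq2 1.42.0 (size factors) were used. The members, gene lists and the SOX2 split were chosen with earlier results of these data known. Text names the 9 members, list genes reaching 10 CPM in a library, the 5 genes most correlated with each laminin member and the 3 highest or lowest clusters; other names were chosen after their values were seen. Some genes that these rules would name are not reported here. Alternatives covered scaling, pseudocount, cells used, weights of cells and classes, WT cells compared, filters and clusters in a class.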

Additional observations from a re-analysis of the deposited data

Results flagged for a closer look

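LAMA3 moved in opposite directions between genotypes on neighbouring days. The CF minus WT difference on the log2(CPM + 1) scale was -1.35 on day 5 and 1.06 on day 7, past 2-fold in each direction over whole libraries. Against SOX2-low WT cells the day 5 difference was 0.71, in the direction of day 7, and without CF cluster 11 the day 7 difference was 0.57, short of 2-fold. With 1 library per genotype and day, the difference between the days was not tested.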

How the results depend on the processing

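With 1 library per group, no replicate could be left out. No paired analysis was possible because the labels give no replicate numbers; a comparison paired by day, which would take the days as replicates, was not run. Depth limits ITGA3 (331 to 899 UMIs per library) and CF ductal cells of day 9. Of the 9 genes' single values, 0 changed sign under scaling, pseudocount, barcode or depth alternatives or when every cell weighed the same, 5 of 54 did with equal class weight and 8 of 45 with WT cells of SOX2-low clusters. Without the low-depth clusters, an alternative chosen after seeing the data, 15 of 54 values moved beyond their counting interval and 0 changed sign, and without CF cluster 11, also chosen after seeing the data, 25 of 54 did and 0 changed sign. More moved with other settings: 40 of 54 under TMM, 42 under DESeq2 scaling, 41 with equal cell weight and 47 with equal class weight. With WT cells of SOX2-low clusters 43 of 45 moved. Under the pseudocount, barcode and depth alternatives 0 to 18 of 54 moved. The median gene shifted under TMM by -0.20, -0.12, -0.19 and -0.26 in the day 7, day 9, WT and CF day 9 against day 2 comparisons. With no filter or one of 50 CPM, 1.65% to 5.64% and 1.48% to 9.56% of genes were past 2-fold in a direction, beside 1.84% to 8.86%.

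With SOX2-low WT cells, LAMA3 on day 5 reversed to 0.71, the members at least 2-fold higher on days 2, 7 and 9 were 1, 6 and 3 in place of 2, 4 and 2, those lower on day 5 were 0 in place of 1, those lower on day 9 than day 2 in WT were 0 in place of 1, and the laminin-332 contrast was -0.73, -0.22, 0.049 and -0.11 on days 2, 5, 7 and 9. The count higher on day 5 was 0 in place of 1 with a pseudocount of 5, all barcodes or equal cell weight. The count higher on day 7 was 2 in place of 4 under TMM and DESeq2 scaling or without CF cluster 11 and 1 with equal class weight. The count higher on day 9 was 1 in place of 2 with a pseudocount of 5 or equal class weight and 4 with equal cell weight. With equal class weight the counts of day 9 against day 2 were 0 lower in WT and 1 in place of 6 higher in CF. The contrast was -1.16 with a pseudocount of 0.1 on day 2, -0.68, -1.18, -0.42 and -0.48 with a pseudocount of 5 on days 2, 5, 7 and 9, -1.40 and -0.68 with equal cell weight on days 5 and 7, -0.69 with equal class weight on day 9, and -0.70 on days 7 and 9 without CF cluster 11. The shares of all tested genes past 2-fold are not given for these recounts, which show only how the members' counts moved with the setting. Why these values moved was not tested.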
